A study of Mus musculus with 8 samples.

Results

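The gene expression of a mouse fibroblast line that stably expresses Pax6 was set against that of the line it was made from. Both are FlpIn-3T3 lines, embryonic fibroblasts that carry 1 recombination site into which a cDNA can be placed. RNA of 2 passages of the Pax6 line (passages 9 and 15) and 3 RNA preparations of the control line (2 of passage 13 and 1 of passage 19) were read on Illumina Mouse Ref-8 arrays, so that 5 of the 8 arrays of the study enter the comparison. The other 3 arrays hold a line with the splice form Pax6(5a), and they are used here to share the estimate of the spread and for 1 closing comparison. The members were taken from the sample labels alone, and no measured value was used to choose them.

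The Pax6 line carries a mouse Pax6 cDNA in an expression vector and was kept in hygromycin, whereas the control line has no insert and was kept in Zeocin. No treatment was given before harvest in either line. Each line is 1 stable line, and the labels do not say whether RNA preparations came from separate dishes. Insert, selection drug and line therefore cannot be told apart, and p-values measure only the spread between arrays of a line.

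Pax6 is a transcription factor with a paired domain and a homeodomain, and it is known as a master regulator of eye development that also acts in the brain and the pancreas. In the eye it is needed for the lens and the retina, and it controls crystallin genes of the lens directly. Fibroblasts do not normally make it, so the comparison asks how a fibroblast line that makes this factor differs from its parent line.

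Values are signal intensities after quantile normalization, and they are given for the Pax6 line in the order passage 9 and passage 15, and for the control line in the order passage 13, passage 13 and passage 19. A gene counts as changed (past threshold 2) when its fold is 1.5 or more and its adjusted p in limma's moderated test is below 0.01. The stricter threshold 1 sets the adjusted p below 0.001 and the fold at 1.7 or more. Log2 fold changes are Pax6 line minus control line and are given ± SE (n = 2 against 3 arrays), and p-values were adjusted by the Benjamini-Hochberg method over all 24613 probes. A gene was detected on an array where its detection p-value was under 0.01, which here took a signal of about 79.45 and 81.13 on the Pax6 arrays, against 76.17 to 78.91 on the control arrays. A signal below this says only that the probe was not above background. Signals of different probes are not compared with each other.

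The probe for Pax6 itself did not tell the lines apart. It read 51.4 and 56.8 in the Pax6 line, against 45.2, 48.2 and 52.5 in the control line, and was detected on none of the 5 arrays (log2 fold change 0.16 ± 0.09, adjusted p = 0.453). Whether this probe lies in the cDNA that was inserted is not given in the sources used here, so the reading checks neither the label nor the insert. The study itself reports Pax6 in the Pax6 line by RT-PCR and Western blot. By RT-PCR it found neither Pax6 nor Pax6(5a) in the control line. The fibroblast label held on both lines: 12 of 15 fibroblast markers were detected, among them vimentin (Vim), at 14343 and 15390.0 in the Pax6 line against 13077, 12758 and 13494 in the control line, and Thy1, at 10412 and 8806 against 12099, 11874 and 9239. Fap, Postn and Sparc were detected on no array of either line. None of 10 epithelial, 7 adipocyte or 7 muscle markers was detected on any of these arrays. Of 8 macrophage markers Cd14 and Lyz2 were detected, and Lyz2, lysozyme, was higher at 155 and 209 in the Pax6 line against 90.6, 100.3 and 86.6 in the control line (log2 fold change 0.97 ± 0.12, adjusted p = 0.000314). Cd14 did not pass. The summed signal of the 8 markers was 871 and 812 in the Pax6 line, against 900, 797 and 800 in the control line.

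The 2 Pax6 arrays stood close to each other and apart from the control arrays. Between 10083 and 10276 probes were detected on the Pax6 arrays and between 10338 and 10685 on the control arrays. The Pax6 arrays differed by 1.5-fold or more at 1.66% of the probes detected on both, and the control arrays of passage 13 and passage 19 at 1.64% and 1.75%. The 2 control preparations of passage 13 differed at only 0.196%. Between a Pax6 array and a control array the share was 5.45% to 8.18%, and the lowest of these was the pair of the 2 later passages.

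Past threshold 2, 165 genes were higher in the Pax6 line (1.03% of 15967 genes measured) and 226 were lower (1.42%). Over the 8319 genes detected on an array of either line, these shares were 1.98% and 2.70%. In probes, 207 were higher (0.841%) and 289 lower (1.17%), and past threshold 1 there were 81 higher (0.329%) and 140 lower (0.569%). The median log2 fold change over all genes was 0.00. The lower genes also held the larger differences, since 82 of them were at least 2-fold lower and 14 at least 4-fold, whereas 41 higher genes were at least 2-fold and 7 at least 4-fold higher. The median fold was 1.81 among the lower genes and 1.73 among the higher ones. In all 391 the ranges of the 2 lines did not overlap, but this was also so for 33.2% of all genes.

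**Figure D1:**
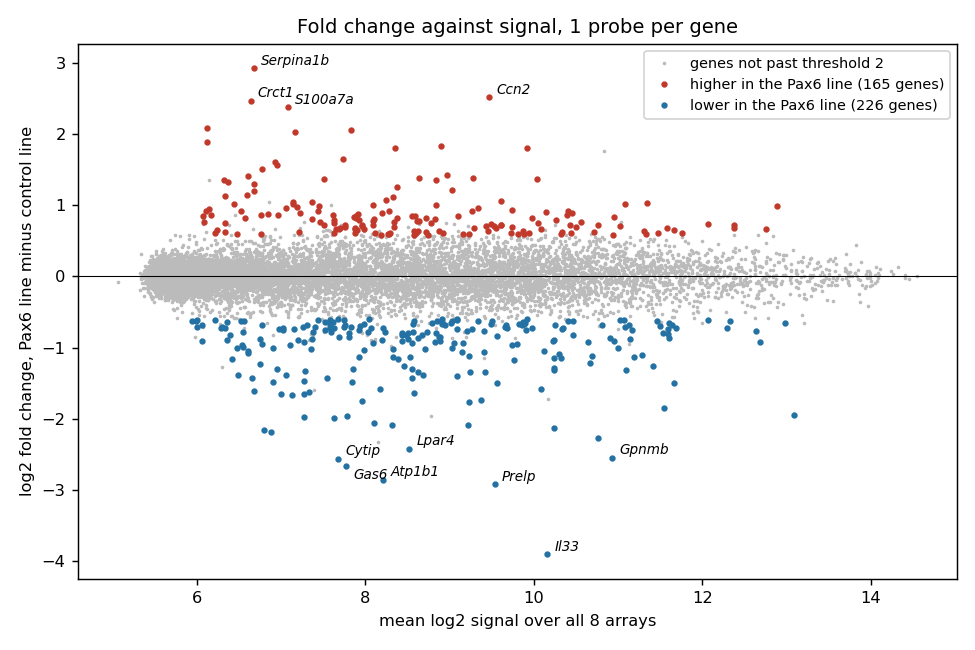
Log2 fold change (Pax6 line minus control line) against the mean log2 signal over all 8 arrays, with 1 point per gene. The 165 genes past threshold 2 that were higher are red, the 226 lower ones are blue, and Il33 lies farthest from 0.

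For some of these genes a line gave no detected signal, and only a bound on the fold can be stated. Of the higher genes, 22 were detected on both Pax6 arrays and on no control array, and of the lower genes 27 were detected on all control arrays and no Pax6 array. For them the dim line was raised to its lowest detected signal, and the fold is written as at least that value.

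Among the largest rises, several genes were at or near background on the control arrays. Serpina1b, an alpha-1 antitrypsin that inhibits serine proteases, read 432 and 453 in the Pax6 line, against 52.6, 64.9 and 58.1 in the control line, where it was never detected, and was at least 5.70-fold higher (log2 fold change 2.92 ± 0.13, adjusted p = 1.07e-07). The probe of its near-identical relative Serpina1d read 179 and 218 against 40.9, 45.0 and 54.5, undetected in the control line (at least 2.54-fold higher), and the 2 probes may share transcripts. Bdnf, the brain-derived neurotrophic factor, read 216 and 211 against 65.8, 70.6 and 81.9, with 1 of the 3 control arrays detecting it, and was 2.95-fold higher (log2 fold change 1.56 ± 0.10, adjusted p = 1.04e-06). The 2 Pax6 arrays lay close together for these genes and far above every control array. By PCR, however, the study reports that Bdnf appeared unregulated.

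For other large rises the Pax6 arrays differed between passages. Crct1, a gene of the epidermal differentiation cluster, read 213 and 533 in the Pax6 line, against 58.2, 58.9 and 66.2 in the control line, so that passage 15 stood above passage 9. S100a7a, a calcium-binding protein of inflamed skin, showed the same order at 241 and 456 against 64.9, 73.4 and 54.8, and so did Blnk, an adaptor of B cell receptor signalling, at 117 and 254 against 47.1, 38.1 and 56.9. All 3 were detected on both Pax6 arrays and on no control array, so that Crct1 was at least 4.34-fold, S100a7a at least 4.27-fold and Blnk at least 2.22-fold higher, and Blnk was not called in 2 of 16 alternative settings. Stard8, a GTPase-activating protein, read 172 and 258 against 54.4, 57.7 and 105 (log2 fold change 1.61 ± 0.23, adjusted p = 0.00102), and here the control array of passage 19 was the high one of its line and the only one of its 3 to detect the gene. Its call was lost in 4 of 16 settings.

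**Figure D2:**
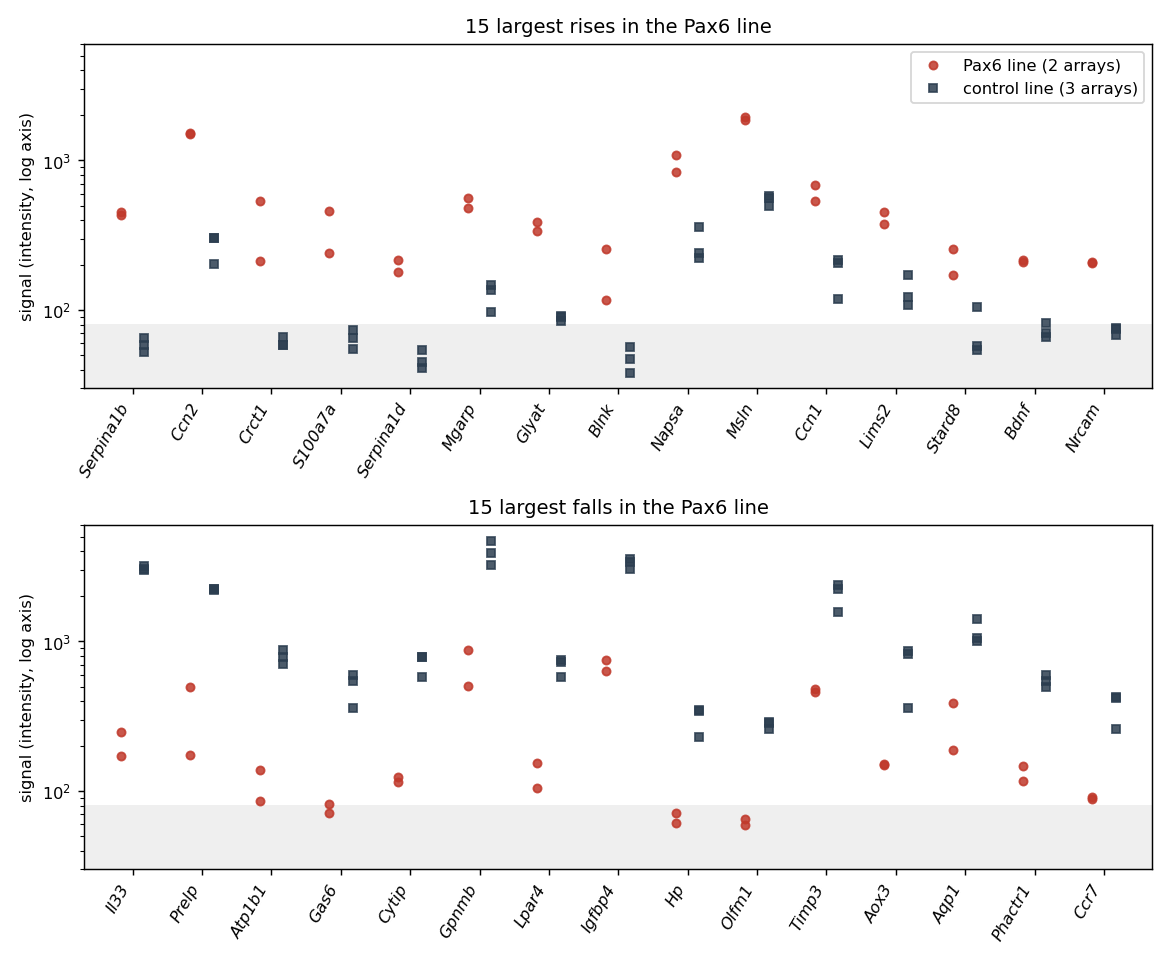
Signal (intensity, log axis) of the 15 genes with the largest rises (upper panel) and the 15 with the largest falls (lower panel), with 1 red circle per Pax6 array and 1 dark square per control array. The grey band marks signals up to about the detection floor, and in none of the 30 genes do the 2 lines overlap.

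Il33 showed the largest difference of the comparison. It encodes an alarmin of the interleukin-1 family that is stored in the nucleus, and it read 171 and 248 in the Pax6 line, against 2989, 3058 and 3217 in the control line, which made it 15.0-fold lower (log2 fold change -3.90 ± 0.20, adjusted p = 2.35e-07). Prelp, a leucine-rich proteoglycan of the matrix, came next at 174 and 499.6 against 2239, 2232 and 2216 (7.55-fold lower, log2 fold change -2.92 ± 0.38, adjusted p = 0.000507). The 3 control arrays agreed closely for Prelp, while the Pax6 arrays were far apart with passage 15 the higher, and the call was lost in 2 of 16 settings.

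Olfm1, a secreted glycoprotein made mostly by neurons, read 64.9 and 59.9 in the Pax6 line and was not detected there, against 285, 259 and 288 in the control line, at least 3.45-fold lower (log2 fold change -2.15 ± 0.09, adjusted p = 1.07e-07). Aqp1, the water channel, read 189 and 390.3 against 1013, 1063 and 1422 (log2 fold change -2.09 ± 0.31, adjusted p = 0.0012), and Aox3, an aldehyde oxidase, 149 and 151 against 827, 869 and 362 (log2 fold change -2.09 ± 0.31, adjusted p = 0.00114). In Aqp1 both lines read highest at their later passage, whereas for Aox3 the control array of passage 19 read well below those of passage 13. Their calls were lost in 4 of 16 and 5 of 16 settings.

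The other large falls covered several functions. Atp1b1, the beta subunit of the sodium pump, read 139 and 85.5 in the Pax6 line, against 883, 783 and 706 in the control line (7.22-fold lower, log2 fold change -2.85 ± 0.24, adjusted p = 1.41e-05). Gas6, the ligand of the TAM receptor kinases, read 82.6 and 71.6 against 541, 599 and 357, and 1 of the 2 Pax6 arrays detected it (log2 fold change -2.67 ± 0.17, adjusted p = 1.66e-06). Cytip, a regulator of cytohesins best known from leukocytes, read 125 and 116 against 788, 784 and 580.3 (log2 fold change -2.56 ± 0.13, adjusted p = 2.18e-07). All 3 were called in every alternative setting.

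Gpnmb, a transmembrane glycoprotein of macrophages and melanocytes, read 507 and 879 in the Pax6 line, against 3900, 3260.1 and 4680 in the control line (log2 fold change -2.55 ± 0.22, adjusted p = 2.08e-05), with the later passage the highest in each line. Lpar4, a receptor for lysophosphatidic acid, read 106 and 154 against 751, 731 and 579 (log2 fold change -2.42 ± 0.15, adjusted p = 9.53e-07). Hp, the haptoglobin that binds free hemoglobin, was not detected in the Pax6 line, at 60.9 and 71.5 against 344, 346 and 229 (at least 3.75-fold lower, log2 fold change -2.19 ± 0.17, adjusted p = 5.81e-06). For Lpar4 and Hp the control array of passage 19 was the lowest of its line, and so it was for Timp3, an inhibitor of metalloproteinases, at 456 and 479 against 2400, 2255 and 1574 (log2 fold change -2.13 ± 0.15, adjusted p = 2.9e-06).

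Of the remaining large rises, Mgarp, a mitochondrial protein of steroid-producing cells, read 563 and 485 in the Pax6 line, against 137, 147 and 98.0 in the control line (4.17-fold higher, log2 fold change 2.06 ± 0.16, adjusted p = 7.01e-06). Napsa, an aspartic protease of lung and kidney, read 833 and 1088 against 239, 223 and 358 (log2 fold change 1.83 ± 0.22, adjusted p = 0.000266, call lost in 1 of 16 settings). In Napsa both lines read highest at their later passage.

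**Figure D3:**
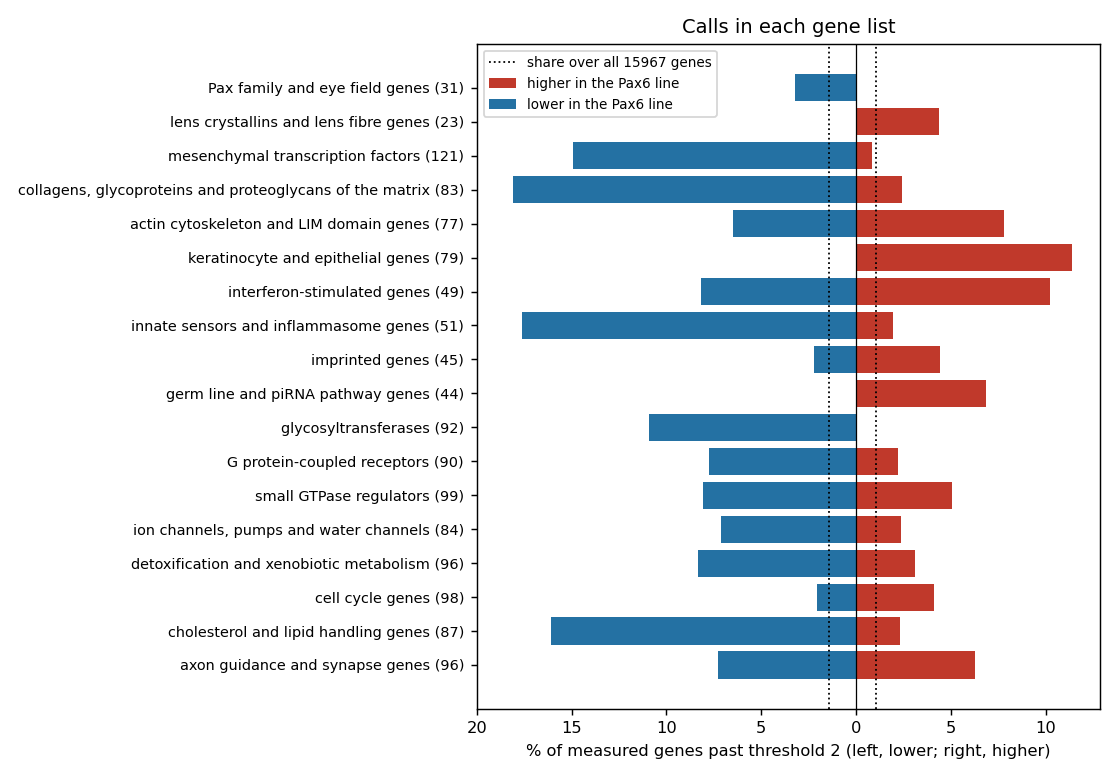
Percent of the measured genes of each of 18 lists (number measured in brackets) that passed threshold 2, lower in the Pax6 line to the left and higher to the right. The dotted lines mark the shares over all 15967 genes, 1.42% lower and 1.03% higher.

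The shares given for each list below stand beside 1.03% higher and 1.42% lower over all genes. Over genes detected in either line these were 1.98% and 2.70%. Each list was drawn up with earlier results of these arrays known. A share above those of all genes is therefore not independent evidence about a group. Genes of the eye field, in which Pax6 acts in the embryo, gave 1 call. Of 31 measured genes of the Pax family and the eye field 8 were detected in either line, and 1 passed the test (3.23%, against 1.42% of all genes lower). The median log2 fold change over the list was 0.00. That gene was Tfap2a, the AP-2 alpha factor that works with Pax6 in lens formation, and it was lower rather than higher, at 655 and 817 in the Pax6 line against 1157, 1195 and 1292 in the control line (log2 fold change -0.73 ± 0.11, adjusted p = 0.00167, call lost in 3 of 16 settings). Sox2, the partner of Pax6 on the lens crystallin enhancer, read 81.2 and 79.3 against 79.1, 74.4 and 82.8, close to the detection floor (log2 fold change 0.03 ± 0.08, adjusted p = 0.929). Meis1, a homeodomain factor upstream of Pax6 in the lens, read 357 and 344 against 407, 422 and 386 and did not pass (log2 fold change -0.21 ± 0.08, adjusted p = 0.205).

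Of 23 crystallin and lens fibre genes 5 were detected, and 1 was higher (4.35%, against 1.03% of all genes). Cryab, the small heat shock protein alpha B crystallin that is also made outside the lens, read 8806 and 13164 in the Pax6 line, against 5203, 4621 and 6707 in the control line (1.98-fold, log2 fold change 0.98 ± 0.19, adjusted p = 0.00681). In both lines the later passage gave the highest reading, and the call was lost in 7 of 16 settings. Cryba4, a beta crystallin, read 119 and 151 against 129, 137 and 164 and did not pass (log2 fold change -0.09 ± 0.12, adjusted p = 0.801).

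Of the transcription factors of mesenchyme that passed the test, nearly all were lower in the Pax6 line. Of 121 measured factors 88 were detected, and the median over the list was -0.09. Of the 121, 18 were lower (14.9%) and 1 higher (0.826%), against 1.42% and 1.03% of all genes. Among genes detected in either line 2.70% were lower and 1.98% higher. Since the members were picked with earlier results known, the larger share that was lower is not independent evidence of a direction. Nr2f1, the orphan nuclear receptor COUP-TFI, differed most, at 752 and 813 in the Pax6 line against 1799, 1848 and 2106 in the control line (2.45-fold lower, log2 fold change -1.29 ± 0.12, adjusted p = 3.84e-05). Ebf1, a helix-loop-helix factor of B cells, fat and mesenchyme, read 272 and 312 against 607, 566 and 602 (log2 fold change -1.02 ± 0.11, adjusted p = 8.43e-05). Gata6, a zinc finger factor of heart and endoderm, was not detected in the Pax6 line, at 69.4 and 60.4, and read 130.4, 129 and 131 in the control line, at least 1.62-fold lower (log2 fold change -1.01 ± 0.09, adjusted p = 2.53e-05).

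Repressors of E-cadherin that mark mesenchymal cells were among the lower factors. Snai2 (Slug) read 304 and 299 in the Pax6 line, against 472, 503 and 457 in the control line (log2 fold change -0.66 ± 0.09, adjusted p = 0.000489), and Zeb1 641 and 789 against 1214, 1058 and 1081 (log2 fold change -0.65 ± 0.11, adjusted p = 0.00328, call lost in 4 of 16 settings). E-cadherin itself (Cdh1) was detected on no array, at 66.8 and 63.8 against 61.5, 64.2 and 66.1. Twist1 (log2 fold change -0.28 ± 0.09, adjusted p = 0.0798), Prrx1 (log2 fold change -0.29 ± 0.10, adjusted p = 0.139) and Zeb2 (log2 fold change -0.32 ± 0.11, adjusted p = 0.134), which belong to the same mesenchymal set, read lower on average and did not pass.

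The remaining lower factors spanned several families. Tcf4, an E protein that pairs with helix-loop-helix factors, read 1797 and 1698 in the Pax6 line, against 2938, 3205 and 2708 in the control line (log2 fold change -0.75 ± 0.10, adjusted p = 0.000538). Sox5, Mef2c, Rfx2 and Kctd15, an inhibitor of AP-2 factors, had log2 fold changes of -0.77, -0.73, -0.78 and -0.79, and all 4 were called in each alternative setting, as were 9 of the 18 in all. Cebpb, a leucine zipper factor of inflammation and fat, read 4426 and 3492 against 6191, 7149 and 6118 (log2 fold change -0.72 ± 0.11, adjusted p = 0.00142, call lost in 3 of 16 settings), and Klf9 read 2039.6 and 2374 against 3620.1, 3838 and 4668 (log2 fold change -0.87 ± 0.16, adjusted p = 0.00504, call lost in 7 of 16 settings). Runx1, Glis1, Rarg, Egr2, Foxs1 and Irf1 were also lower, and each of these 6 lost its call in 2 to 9 of the settings. The 1 factor that was higher was Klf5, a Krüppel-like factor of epithelia and muscle, at 1317 and 1054 against 676, 762 and 845 (log2 fold change 0.64 ± 0.13, adjusted p = 0.00892), and that call was lost in 9 of 16 settings. With neqc background correction or with same-passage preparations averaged 10 of the factors were lower, and 11 were lower without the Pax6 array of passage 9.

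**Figure D4:**
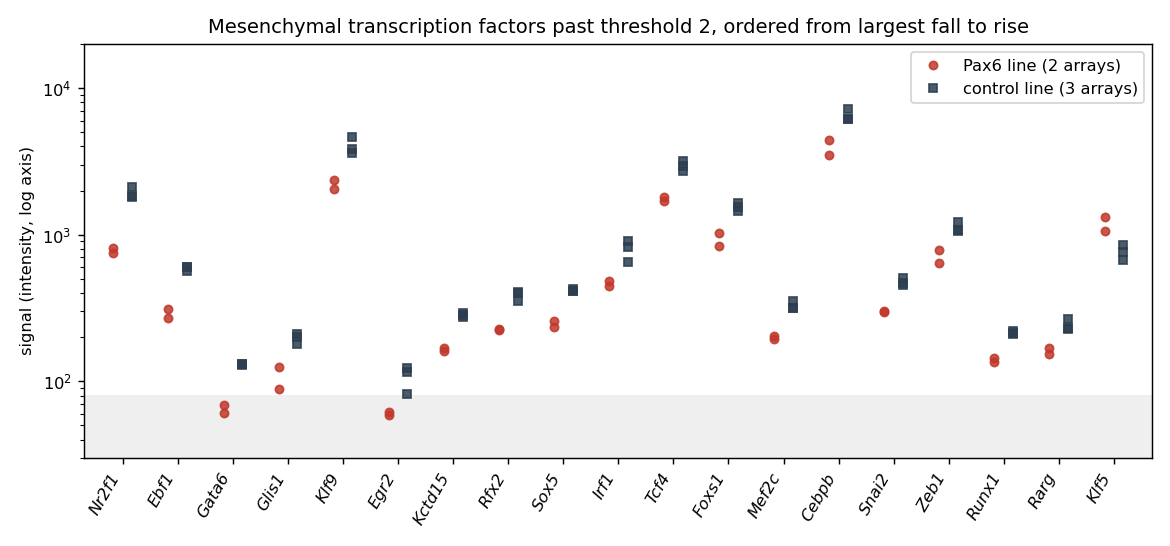
Signal (intensity, log axis) of the 19 mesenchymal transcription factors past threshold 2, ordered by log2 fold change, with 1 red circle per Pax6 array and 1 dark square per control array. In 18 of them both Pax6 arrays lie below all 3 control arrays, and Klf5 is the exception.

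Collagens, glycoproteins and proteoglycans of the matrix gave 15 falls. Of 83 measured genes 56 were detected, the falls made 18.1% and 2 were higher (2.41%), and the median was -0.09. With neqc background correction 9 were lower. Thbs2, a thrombospondin that binds matrix and inhibits vessel growth, read 3928 and 3521 in the Pax6 line, against 14438, 14546 and 13833 in the control line (3.84-fold lower, log2 fold change -1.94 ± 0.08, adjusted p = 1.07e-07). Crtap, a partner of the prolyl 3-hydroxylase of collagen, read 103 and 135 against 423, 481 and 489 (3.93-fold lower, log2 fold change -1.98 ± 0.12, adjusted p = 9.44e-07). Ltbp2, a fibrillin-binding protein, read 555 and 652 against 1603, 1587 and 2322 (log2 fold change -1.59 ± 0.14, adjusted p = 2.65e-05), and its control array of passage 19 stood above the others.

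Other lower matrix genes included Tgfbi, an integrin-binding protein, at 95.9 and 163 in the Pax6 line against 337, 354 and 362 in the control line (log2 fold change -1.49 ± 0.17, adjusted p = 0.00017, call lost in 1 of 16 settings), and Igfbp7, at 1696 and 1520.1 against 4823, 5060.1 and 3798 (log2 fold change -1.49 ± 0.12, adjusted p = 7.34e-06). Among collagens, Col4a5 of basement membranes (-0.66), Col6a1 (-0.69) and Col16a1 (-0.61) were lower by these log2 fold changes, and each lost its call in some settings. Col1a1, the main fibrillar collagen of fibroblasts, read 2672 and 2310.2 against 3211, 3274 and 2394 and did not pass (log2 fold change -0.24 ± 0.13, adjusted p = 0.394).

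Fibronectin (Fn1) read 1569.5 and 1669 in the Pax6 line, against 4790.2, 4664 and 2613 in the control line (log2 fold change -1.26 ± 0.23, adjusted p = 0.00534). Its control array of passage 19 lay between the passage 13 arrays and the Pax6 arrays, and the call was lost in 7 of 16 settings. The 2 higher matrix genes were Lamb3, a laminin chain of the epidermal basement membrane, at 131 and 155 against 67.2, 67.0 and 77.4, where it was not detected (at least 1.83-fold, log2 fold change 1.02 ± 0.11, adjusted p = 8.13e-05), and the microfibril protein Mfap5 (0.68, lost in 11 of 16 settings). In all, 8 of the 15 falls and 1 of the 2 rises were called in every alternative setting.

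A pair of receptors that mark fibroblasts were lower as well. Pdgfra, a receptor for platelet-derived growth factor, read 654 and 602 in the Pax6 line, against 1283, 1344 and 1016 in the control line (log2 fold change -0.94 ± 0.12, adjusted p = 0.000286), and its partner Pdgfrb read 109.9 and 114 against 204, 211 and 201 (log2 fold change -0.87 ± 0.09, adjusted p = 0.000112). In the study's PCR, however, Pdgfra appeared unregulated. Over the 15 fibroblast markers the median log2 fold change was -0.24. With Fn1, 3 were lower (20%, against 1.42% of all genes) and none was higher. Their summed signal was 38025 and 38634 in the Pax6 line, against 45817, 44989 and 39604 in the control line, and its part in the differences of the matrix genes was not tested.

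The actin cytoskeleton list was divided. Of 77 measured genes 52 were detected, 6 were higher (7.79%) and 5 lower (6.49%), with a median of 0.05. Ankrd1, a nuclear and sarcomeric ankyrin repeat protein, read 1716 and 1552 in the Pax6 line, against 651, 746 and 519 in the control line (2.58-fold higher, log2 fold change 1.37 ± 0.16, adjusted p = 0.00021). Lims2 (PINCH-2), an adaptor at integrin contacts, read 377 and 452 against 108, 123 and 171 (log2 fold change 1.65 ± 0.15, adjusted p = 3.35e-05), and Dmtn, which bundles actin under the membrane, 125 and 174 against 58.0, 55.6 and 63.6, where it was not detected (at least 1.90-fold, log2 fold change 1.32 ± 0.12, adjusted p = 3.18e-05). Fhl1 (undetected in the control line, at least 1.49-fold), Myoz2 and the actin nucleator Spire2 were the other rises, and all 6 were called in every alternative setting.

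Among the lower actin genes, Lsp1, an actin-binding protein of leukocytes, read 101 and 136 in the Pax6 line, against 457, 431 and 315 in the control line (3.37-fold lower, log2 fold change -1.75 ± 0.17, adjusted p = 3.58e-05). Baiap2l1, which bends membranes, read 116 and 106 against 290.4, 342 and 268 (log2 fold change -1.43 ± 0.11, adjusted p = 7.34e-06). Phactr1 (-2.06), the focal adhesion protein Tns4 (-0.94) and the myosin light chain kinase Mylk (-0.59, lost in 6 of 16 settings) completed the falls. Acta2, the smooth muscle actin of myofibroblasts, read 3248 and 5173 against 5515, 5838 and 5203 and did not pass (log2 fold change -0.43 ± 0.15, adjusted p = 0.137).

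Ankrd1 is known, with Ccn1 and Ccn2, as a target of the TEAD factors and their coactivators YAP and TAZ. Ccn2 read 1508 and 1533 in the Pax6 line, against 301, 302 and 205 in the control line (5.73-fold higher, log2 fold change 2.52 ± 0.18, adjusted p = 3.77e-06), and Ccn1 read 687 and 533 against 208, 215 and 118 (3.48-fold higher, log2 fold change 1.80 ± 0.24, adjusted p = 0.000562, call lost in 3 of 16 settings). In all 3 genes the control array of passage 19 was the lowest of its line. Ccn2 had no promoter window in the sources used here, so its promoter was not searched. The promoters of Ccn1 and Ankrd1 are shown because the genes moved together and both hold the core of the TEAD binding site. They are RefSeq windows of mouse build GRCm38.p6, 250 bases before to 50 bases after a start of transcription, written 5′ to 3′ on the strand of the gene. Capitals mark GGAATG, or CATTCC where the match is on the other strand. The Ccn1 window is chr3:145649936-145650235 (minus strand) and the Ankrd1 window is chr19:36119795-36120094 (minus strand).
Ccn1: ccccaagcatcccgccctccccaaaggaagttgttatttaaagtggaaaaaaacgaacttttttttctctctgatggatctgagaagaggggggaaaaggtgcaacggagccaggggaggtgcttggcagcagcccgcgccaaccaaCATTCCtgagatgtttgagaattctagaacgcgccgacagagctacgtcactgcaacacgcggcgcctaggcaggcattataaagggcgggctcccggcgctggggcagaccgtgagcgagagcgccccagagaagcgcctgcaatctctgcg
Ankrd1: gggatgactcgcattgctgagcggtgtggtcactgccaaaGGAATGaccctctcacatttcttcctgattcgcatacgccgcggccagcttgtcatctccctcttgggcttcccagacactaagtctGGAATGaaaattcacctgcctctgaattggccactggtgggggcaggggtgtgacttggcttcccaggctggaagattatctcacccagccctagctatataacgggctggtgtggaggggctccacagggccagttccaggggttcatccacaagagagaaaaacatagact

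The match in Ccn1 begins 103 bases before the start, and those in Ankrd1 begin 210 and 123 bases before it. Both strands were searched, and GGAATG was found in 1 window or more of 30 of the 121 higher genes with a window (24.8%), of 34 of the 181 lower genes with a window (18.8%) and of 1929 of 12848 genes of the array (15.0%). The lower gene Il33 also has a match, 131 bases before the first of its starts. These letters are short, and a match shows neither binding nor an effect on the gene.

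Genes of keratinocytes and other epithelia were mostly not called. Of 79 measured genes only 23 were detected in either line, 9 were higher (11.4%) and none was lower at threshold 2 in the limma test, and the median was 0.00. Mesothelin (Msln), a surface protein of mesothelium, read 1952 and 1877 in the Pax6 line, against 566, 579 and 498 in the control line (3.5-fold higher, log2 fold change 1.81 ± 0.09, adjusted p = 2.18e-07). Klk8, a secreted serine protease of skin and brain, read 512 and 946 against 247, 269 and 290.0 (log2 fold change 1.38 ± 0.18, adjusted p = 0.000594, call lost in 2 of 16 settings), with passage 15 above passage 9 in the Pax6 line. Pkp2, a plakophilin of desmosomes, read 242 and 239.9 against 125, 121 and 117 (log2 fold change 1.00 ± 0.11, adjusted p = 0.000139).

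Itgb4, the integrin subunit of hemidesmosomes, read 661 and 919.6 in the Pax6 line, against 409, 387 and 405 in the control line (log2 fold change 0.96 ± 0.17, adjusted p = 0.00379, call lost in 5 of 16 settings), and with Lamb3 it is part of the adhesion of skin to its basement membrane. Tuft1 (0.81) and the orphan receptor Gprc5a (0.92) were also higher, and 7 of the 9 were called in every alternative setting. The keratins that define epithelia were at background. Krt8 read 52.3 and 46.8 against 57.1, 52.0 and 58.7, Krt18 71.9 and 73.8 against 63.7, 65.2 and 58.8 and Krt14 54.6 and 48.2 against 63.9, 64.9 and 55.6, and none of these 3 was detected on any of the 5 arrays.

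Innate sensors and their regulators gave 9 falls and 1 rise. Of 51 measured genes 33 were detected, the falls made 17.6% and the rise 1.96%, with a median of -0.09, and 8 of the 9 falls, with the rise, were called in every alternative setting. Il33 headed the list. Casp4, the mouse caspase-11 that senses bacterial lipopolysaccharide, was not detected in the Pax6 line at 65.3 and 69.1, against 152, 119.9 and 154 in the control line (at least 1.76-fold lower, log2 fold change -1.07 ± 0.13, adjusted p = 0.000287), and Casp1, which matures interleukin-1 beta, read 79.6 and 75.1 against 141, 127 and 129.7 (log2 fold change -0.78 ± 0.08, adjusted p = 0.000119).

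Nod1, a sensor of bacterial cell wall, read 180.2 and 181 in the Pax6 line, against 327, 358 and 294 in the control line (log2 fold change -0.85 ± 0.10, adjusted p = 0.000301). The NF-kappa B pathway was represented on both sides of the list. Nfkbiz, a nuclear cofactor of the pathway, read 390.2 and 391 against 706, 673 and 859.6 (log2 fold change -0.93 ± 0.12, adjusted p = 0.000504), and its inhibitor Nfkbie 106 and 106 against 235, 209.8 and 197 (log2 fold change -1.01 ± 0.11, adjusted p = 0.000109). Azi2, Il1rap and Relb were lower, with log2 fold changes of -0.94, -0.78 and -0.64, and Relb lost its call in 7 of 16 settings. Cyld, a deubiquitinase that restrains NF-kappa B, was the rise, at 1625 and 1729 against 932, 898 and 1093 (log2 fold change 0.79 ± 0.10, adjusted p = 0.000286).

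A pair of chemokines that NF-kappa B is known to induce were lower too. Ccl7, which draws in monocytes, read 1002 and 1432 in the Pax6 line, against 4673, 4287 and 4004 in the control line (3.60-fold lower, log2 fold change -1.85 ± 0.16, adjusted p = 2.08e-05), and its neighbour in the genome Ccl2 read 176 and 221 against 428, 413 and 459 (log2 fold change -1.13 ± 0.12, adjusted p = 0.000111). These 2 genes belong to none of the lists and were chosen after their values were seen. A part of NF-kappa B in their falls was not tested.

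Interferon-stimulated genes gave calls in both directions. Of 49 measured genes 31 were detected, 5 were higher (10.2%) and 4 lower (8.16%), with a median of -0.04. Il15, a cytokine for natural killer cells, read 482 and 475 in the Pax6 line, against 268, 260.0 and 233 in the control line (log2 fold change 0.92 ± 0.10, adjusted p = 8.75e-05), and Zc3hav1, a zinc finger protein that binds viral RNA, 441 and 407 against 243, 225 and 220.1 (log2 fold change 0.89 ± 0.09, adjusted p = 4.78e-05). Oas1g, of the oligoadenylate synthetases, read 146 and 135 against 75.6, 77.5 and 76.1, detected on 1 of the 3 control arrays, and its probe may share signal with its close relatives (log2 fold change 0.88 ± 0.09, adjusted p = 6.27e-05). These 3 were called in every alternative setting, while Bst2 and Irgm1 lost their calls in 9 of 16 and 13 of 16. None of the 4 falls (Ifitm1, Ifitm3, Irf1 and Lgals3bp) was called in every setting, and Ifitm3 read 3869 and 4706 against 7756, 7475 and 6498 (log2 fold change -0.76 ± 0.11, adjusted p = 0.000892, call lost in 3 of 16 settings).

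Of the glycosyltransferases, which build sugar chains on proteins and lipids, 10 were lower. Of 92 measured genes 54 were detected, the falls made 10.9% and none was higher, and the median was -0.02. The study singled this group out on these same arrays, so the count is not independent evidence of its direction. Gcnt1, which starts core 2 branches of O-glycans, read 166 and 176 in the Pax6 line, against 607, 567 and 385 in the control line (2.99-fold lower, log2 fold change -1.58 ± 0.16, adjusted p = 7.01e-05). Mgat3, which adds the bisecting sugar of N-glycans, read 199 and 193 against 559, 581 and 445 (log2 fold change -1.42 ± 0.11, adjusted p = 5.81e-06), and St6gal1, a sialyltransferase, 271 and 329 against 714, 838 and 806 (log2 fold change -1.39 ± 0.11, adjusted p = 7.88e-06). In Gcnt1 and Mgat3 the control array of passage 19 was the lowest of its line.

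Ugt1a7c, a glucuronosyltransferase that clears drugs and shares its last exons with other Ugt1a genes, read 1400.5 and 1386 in the Pax6 line, against 3708, 3713 and 3052 in the control line (log2 fold change -1.32 ± 0.11, adjusted p = 8.63e-06). St3gal6 was not detected in the Pax6 line, at 70.5 and 62.5 against 166, 159.9 and 124 (at least 1.85-fold lower, log2 fold change -1.17 ± 0.12, adjusted p = 7.01e-05). Csgalnact1, which starts chondroitin sulfate chains, read 87.6 and 89.3 against 181, 169 and 184 (log2 fold change -1.01 ± 0.10, adjusted p = 3.58e-05). Fut8, which adds the core fucose, had a log2 fold change of -0.71 and lost its call in 2 of 16 settings, St3gal1 of -0.59 lost it in 9 of 16, and the other 8 were called in all of them.

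Genes of cholesterol and lipid handling that passed the test were mostly lower. Of 87 measured genes 61 were detected, 14 were lower (16.1%) and 2 higher (2.3%), with a median of -0.07. The falls numbered 7 with neqc, 8 with same-passage preparations averaged, 8 without Pax6 passage 15 and 9 without the second control preparation of passage 13. Enzymes of the cholesterol pathway were among them. Dhcr7, the last enzyme of the pathway, read 166 and 160.0 in the Pax6 line, against 413, 398 and 280.0 in the control line (log2 fold change -1.13 ± 0.14, adjusted p = 0.000393). Lss, which closes the sterol rings, read 1629 and 1167 against 2979, 2945 and 2389 (log2 fold change -1.0 ± 0.17, adjusted p = 0.00277), and Nsdhl 4790.2 and 4502 against 10091, 9471 and 7036 (log2 fold change -0.92 ± 0.14, adjusted p = 0.00149). Sqle, Hsd17b7 and Mvd were lower, with log2 fold changes of -0.63, -0.68 and -0.80.

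In these sterol genes the control array of passage 19 was also below the passage 13 arrays, and except for Dhcr7 their calls were lost in 5 to 8 of the 16 settings. Cyp51 read 1694 and 1283 in the Pax6 line against 3496, 3131 and 2121 in the control line and Insig1 247 and 226 against 490.5, 509 and 312, and neither passed (log2 fold change -0.95 ± 0.22, adjusted p = 0.021 for Cyp51, log2 fold change -0.85 ± 0.20, adjusted p = 0.0192 for Insig1). Fdps, another enzyme of the pathway, read 12562 and 9186 against 12809, 12099 and 10366, with overlapping ranges (log2 fold change -0.12 ± 0.15, adjusted p = 0.785).

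Of the other lipid genes, Plin4, a coat protein of lipid droplets, was not detected in the Pax6 line, at 64.1 and 75.8 against 236, 241 and 192 in the control line (at least 2.76-fold lower, log2 fold change -1.67 ± 0.18, adjusted p = 9.38e-05). Plpp3, which removes lysophosphatidic acid, read 1540.1 and 2000.2 against 3610.2, 3716 and 4195 (log2 fold change -1.13 ± 0.12, adjusted p = 9.75e-05), and Scd1, the fatty acid desaturase, 1402 and 1287 against 2589, 2605 and 2170.0 (log2 fold change -0.86 ± 0.13, adjusted p = 0.00143, call lost in 3 of 16 settings). Mboat1, an acyltransferase of lysophospholipids, was higher at 280.2 and 274 against 127, 132 and 143 (log2 fold change 1.05 ± 0.11, adjusted p = 9.76e-05). In all, 6 of the 14 falls and 1 of the 2 rises were called in every alternative setting.

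Detoxification genes were mostly lower where they passed. Of 96 measured genes 60 were detected, 8 were lower (8.33%; 5 with neqc) and 3 higher (3.12%), with a median of 0.00. Cyp1b1, the extrahepatic cytochrome induced through the aryl hydrocarbon receptor, read 169 and 171 in the Pax6 line, against 446, 441 and 749.5 in the control line (3.11-fold lower, log2 fold change -1.64 ± 0.19, adjusted p = 0.000224). The glutathione transferases Gstt3 and Gsta3 read 80.8 and 87.9 against 299, 263 and 235 (log2 fold change -1.65 ± 0.12, adjusted p = 2.9e-06) and 214 and 247 against 547, 587 and 563 (log2 fold change -1.30 ± 0.18, adjusted p = 0.000662, call lost in 2 of 16 settings). Aldh1a1, which makes retinoic acid, was higher at 161 and 134 against 62.6, 65.4 and 52.3, where it was not detected (at least 1.89-fold, log2 fold change 1.30 ± 0.23, adjusted p = 0.00438), but the call was lost in 8 of 16 settings. Glyat and Mat1a, enzymes best known from liver, were higher in every setting, with log2 fold changes of 2.03 and 0.92, and 1 of the 3 control arrays detected Mat1a.

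Receptors coupled to G proteins that passed the test were mostly lower, with 7 of 90 measured genes lower (7.78%), 2 higher (2.22%) and a median of 0.00, and 39 of them detected. Gpr176, an orphan receptor of the circadian clock, read 284 and 262 in the Pax6 line, against 833, 912 and 1046 in the control line (3.4-fold lower, log2 fold change -1.76 ± 0.11, adjusted p = 1.02e-06). Mrgprf read 168 and 171 against 318, 302 and 428 (log2 fold change -1.03 ± 0.13, adjusted p = 0.00041), and Ptgir, the prostacyclin receptor, 55.8 and 51.4 against 89.2, 96.9 and 117, with no detection in the Pax6 line (at least 1.25-fold lower, log2 fold change -0.91 ± 0.11, adjusted p = 0.000227). Bdkrb1, a bradykinin receptor, and the Wnt receptor Fzd1 were lower and Fzd5 higher, and each of these 3 lost its call in at least 1 setting.

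Of 84 ion channels and pumps 42 were detected, 6 were lower (7.14%) and 2 higher (2.38%), with a median of -0.01. With passage number as a covariate 4 were higher. Lrrc8d, a subunit of the volume-regulated anion channel, read 613 and 600.2 in the Pax6 line, against 1203, 1134 and 1206 in the control line (log2 fold change -0.96 ± 0.08, adjusted p = 1.81e-05). The calcium pump Atp2a2 (-0.72), Ttyh3 (-0.90) and the ATP-gated channel P2rx4 (-0.90, lost in 4 of 16 settings) were lower. The rises were Atp6v0e2, a subunit of the proton pump of lysosomes, at 657 and 728 against 312, 337 and 391 (log2 fold change 1.00 ± 0.10, adjusted p = 6.85e-05), and the chloride transporter Clcn3, at 672 and 583 against 337, 368 and 375 (log2 fold change 0.80 ± 0.09, adjusted p = 0.000157).

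Regulators of small GTPases changed both ways, with 8 of 99 measured genes lower (8.08%), 5 higher (5.05%) and a median of -0.02, and 61 of them detected. The falls numbered 5 with neqc, with same-passage preparations averaged and without Pax6 passage 15. Arhgef3, an exchange factor, read 178 and 175 in the Pax6 line, against 70.4, 55.3 and 74.4 in the control line, where it was not detected (at least 2.27-fold higher, log2 fold change 1.42 ± 0.12, adjusted p = 1.07e-05). Def6, an exchange factor best known from T cells, was the opposite at 56.3 and 56.7, not detected, against 143, 155 and 159.6 (at least 1.90-fold lower, log2 fold change -1.43 ± 0.08, adjusted p = 9.21e-07). Arhgap24, which inactivates Rac, read 871 and 686 against 1848, 1904 and 1421 (log2 fold change -1.15 ± 0.14, adjusted p = 0.000266). Rasa3 (-0.89) and Rgl1 (-1.17), which act on Ras and Ral, were lower, and Garnl3, Plce1 and Rusc1 were higher by 0.78, 0.87 and 0.82 on the log2 scale, all 5 in every setting. Plce1 was not detected in the control line and was at least 1.44-fold higher.

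Genes of axon guidance and synapses were also divided. Of 96 measured genes 48 were detected, 6 were higher (6.25%) and 7 lower (7.29%), with a median of 0.03, and all 13 were called in every alternative setting. Besides Bdnf, the cell adhesion molecule Nrcam was higher at 209 and 205 in the Pax6 line against 68.4, 75.8 and 74.4 in the control line, where it was not detected (at least 2.67-fold, log2 fold change 1.51 ± 0.10, adjusted p = 1.66e-06). Gdap1, a mitochondrial protein of nerve, read 224 and 208 against 112, 117 and 93.5 (log2 fold change 1.02 ± 0.11, adjusted p = 0.0001), and Fez2 3414 and 3269 against 1705, 1709 and 1527 (log2 fold change 1.02 ± 0.09, adjusted p = 2.43e-05). The guidance genes Epha2 and Sema4b were higher by 0.86 and 0.73.

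On the other side, Adam23, an adhesion protein of synapses, read 338 and 397 in the Pax6 line, against 952, 864 and 961 in the control line (log2 fold change -1.33 ± 0.10, adjusted p = 5.36e-06), and Amigo2 264 and 190.3 against 632, 543 and 538 (log2 fold change -1.35 ± 0.12, adjusted p = 3.07e-05). Slit2, the repellent ligand of Robo receptors, read 1316 and 1015 against 2199, 2074 and 2268 (log2 fold change -0.92 ± 0.12, adjusted p = 0.00041), and Nsg1, a sorting protein of neuronal endosomes, 81.1 and 83.2 against 213, 179.8 and 215 (log2 fold change -1.30 ± 0.12, adjusted p = 3.58e-05). No neuron marker passed the test. Tubb3, the neuronal tubulin, read 105 and 101 against 104, 107 and 105 (log2 fold change -0.04 ± 0.08, adjusted p = 0.9), and 5 of 9 measured neuron markers were detected on no array of either line.

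Bdnf is shown with its promoter because its window holds TTCACGC, the core of the sequence that the paired domain of Pax6 binds in vitro. Of 121 higher genes with a window 5 held these letters on either strand (4.13%), namely Arhgap29, Bdnf, Prmt7, Rassf7 and Rusc1. Of 181 lower genes with a window 3 did (1.66%), namely Gsdme, Osbp2 and Smad3, and of 12848 genes of the array 232 did (1.81%). Bdnf has several starts in RefSeq, and which of them the array probe reads is not given in the sources used here. The other Bdnf probe was at background in both lines (log2 fold change -0.06, adjusted p = 0.872 in the limma test). In the study's PCR Bdnf appeared unregulated. Its window with the match (chr2:109692186-109692485, plus strand) and that of Smad3, a mediator of TGF-beta signals that was lower at 768 and 595 in the Pax6 line against 1122, 1139 and 1044 in the control line (chr9:63757945-63758244, minus strand), are given with the match in capitals, as GCGTGAA since both lie on the other strand.
Bdnf: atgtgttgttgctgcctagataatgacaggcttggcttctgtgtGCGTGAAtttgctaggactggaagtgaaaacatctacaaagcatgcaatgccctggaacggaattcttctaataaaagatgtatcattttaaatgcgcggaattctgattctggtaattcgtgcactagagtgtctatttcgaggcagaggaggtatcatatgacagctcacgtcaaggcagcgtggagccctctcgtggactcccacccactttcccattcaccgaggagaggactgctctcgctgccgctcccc
Smad3: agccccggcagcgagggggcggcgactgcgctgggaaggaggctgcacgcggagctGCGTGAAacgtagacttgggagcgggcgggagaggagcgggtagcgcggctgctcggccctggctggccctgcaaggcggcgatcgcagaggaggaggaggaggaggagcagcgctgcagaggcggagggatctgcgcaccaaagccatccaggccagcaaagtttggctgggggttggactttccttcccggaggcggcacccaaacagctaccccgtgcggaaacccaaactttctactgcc

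The call of Smad3 was lost in 5 of 16 settings. The match begins 206 bases before the start in Bdnf and 194 bases before it in Smad3. The paired domain tolerates many variants of its site, and windows without these letters can hold other sites.

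Most imprinted and germ line genes were not called, though the shares that were higher lay above the 1.03% of all genes. Of 45 imprinted genes 23 were detected, 2 were higher (4.44%) and 1, the sterol enzyme Dhcr7, lower (2.22%), with a median of 0.06. Snrpn, a splicing protein from the Prader-Willi region, read 819.6 and 781 in the Pax6 line, against 333, 335 and 362 in the control line (2.33-fold higher, log2 fold change 1.22 ± 0.08, adjusted p = 2.61e-06), and Snurf, which is read from the same transcript, 549 and 385 against 229, 218 and 209 (log2 fold change 1.07 ± 0.15, adjusted p = 0.000975, call lost in 3 of 16 settings). Since Snrpn and Snurf share a transcript, the 2 rises behind the imprinted share are not separate calls. Ndn, also from the Prader-Willi region, was at background in both lines, at 56.8 and 64.0 against 56.4, 57.0 and 56.6. Of 44 germ line genes 10 were detected, 3 were higher (6.82%) and none lower, with a median of -0.02. Tdrkh, a Tudor domain protein of piRNA processing, read 839 and 864 against 406, 464 and 478 (log2 fold change 0.93 ± 0.09, adjusted p = 7.29e-05), and Rnf113a2 and Tex14 were higher by 0.84 and 0.86 on the log2 scale, the call of Tex14 being lost in 5 of 16 settings.

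Most cell cycle genes did not pass the test, though the share that was higher lay above that of all genes. Of 98 measured genes 77 were detected, 4 were higher (4.08%, against 1.03% of all genes) and 2 lower (2.04%, against 1.42%), with a median of 0.06. With passage number as a covariate 10 were higher and the median was 0.11, and 7 were higher, with a median of 0.12, without the control array of passage 19. With earlier or later passage as a term 4 were lower. Uhrf2, a reader of DNA methylation, read 1005 and 1022 in the Pax6 line, against 2237, 2183 and 2196 in the control line (2.18-fold lower, log2 fold change -1.12 ± 0.08, adjusted p = 2.39e-06). The kinase Plk3 and the p53 target Ccng1 were higher, at 1775 and 1410.1 against 828, 869.6 and 831 (log2 fold change 0.91 ± 0.12, adjusted p = 0.00042) and 1851 and 1880.4 against 1149.5, 1096 and 849 (log2 fold change 0.87 ± 0.12, adjusted p = 0.000614, call lost in 1 of 16 settings). Cyclin D1 (Ccnd1) read 7774 and 8264 against 5232, 5294 and 5543 and fell just short of the fold asked for (log2 fold change 0.58 ± 0.10, adjusted p = 0.00291). Cdk1 (log2 fold change 0.30 ± 0.13, adjusted p = 0.224) and the replication helicase subunit Mcm2 (log2 fold change 0.05 ± 0.10, adjusted p = 0.905) did not pass.

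The study reports that most genes it tested by PCR changed in the direction seen on the array. It also reports that Adamts2, Bdnf, Pdgfra and Ppp3ca appeared unregulated by PCR and that Prkcn (Prkd3) was borderline. Further genes that the study measured by PCR gave the following array values. Edn1, the vasoconstrictor peptide endothelin-1, read 145 and 162 in the Pax6 line, against 72.9, 75.7 and 61.0 in the control line, where it was not detected (at least 1.97-fold higher, log2 fold change 1.14 ± 0.14, adjusted p = 0.000272). Cdh5, the cadherin of endothelial junctions, read 867 and 868 against 311, 349.8 and 309 (2.69-fold higher, log2 fold change 1.43 ± 0.11, adjusted p = 4.72e-06), while the other 9 of 10 endothelial markers were detected on no array of either line. Ppp3ca, the catalytic subunit of calcineurin, read 981 and 1101 against 2651, 2829 and 1853 (log2 fold change -1.21 ± 0.15, adjusted p = 0.000292), and the kinase Prkd3 239 and 281 against 521, 447 and 463 (log2 fold change -0.88 ± 0.10, adjusted p = 0.000139). Ngef, an exchange factor of growth cones, read 1472 and 2454 against 1009.5, 994 and 1396 and did not pass (log2 fold change 0.76 ± 0.19, adjusted p = 0.0332). Pdgfb was at background in both lines, at 58.2 and 58.8 against 65.2, 63.3 and 53.1. By PCR the study found Pdgfb lower in the Pax6 line, a deviation from the array that it could not explain. A probe at background cannot show such a fall. Sphk1, a sphingosine kinase, read 182 and 186 against 243, 248 and 236 with no call (log2 fold change -0.40 ± 0.10, adjusted p = 0.026).

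The 2 passages of the Pax6 line allowed each difference to be looked at earlier and later. The earlier difference is Pax6 passage 9 minus the mean of the control arrays of passage 13, and the later one is passage 15 minus control passage 19. All 391 called genes had the same sign in both, though they were chosen on these same arrays, and 275 were at least 1.5-fold in both (105 of the 165 higher and 170 of the 226 lower genes). Some genes differed between the 2 times. On the log2 scale Prelp had an earlier difference of -3.68 and a later one of -2.15, Aox3 of -2.51 and -1.26 and Fn1 of -1.59 and -0.65. With 1 Pax6 array at each passage these differences between times were not tested.

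**Figure D5:**
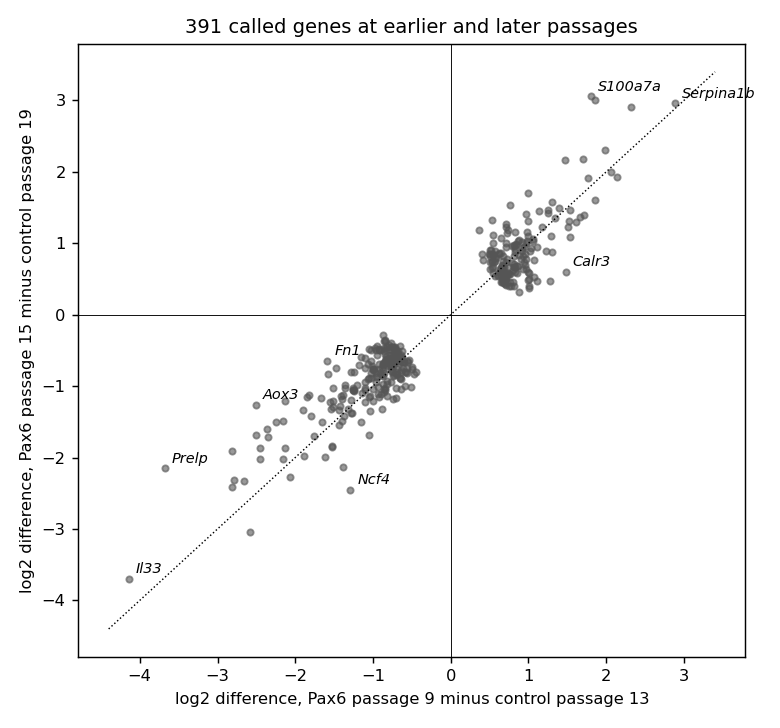
Log2 difference at the earlier passages (Pax6 passage 9 minus control passage 13, horizontal axis) against the later passages (Pax6 passage 15 minus control passage 19, vertical axis) for the 391 genes past threshold 2, with 1 point per gene. The dotted line marks equal differences, and each gene keeps its sign in both.

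Genes next to each other in the genome, in the order of RefSeq and among the genes on the array, were both called in some cases. The called genes formed 21 of the 15934 neighbouring pairs (0.132%), of which 16 (76.2%) had the same direction and 5 opposite directions, and over all neighbouring pairs 52.7% had fold changes of the same sign. Several of those with the same direction are gene families or shared transcripts, such as Serpina1b with Serpina1d, Ifitm1 with Ifitm3, Casp1 with Casp4, Ccl2 with Ccl7 and Snrpn with Snurf. Igfbp4, Tns4 and Ccr7 were lower side by side, and Ccn1 and Ddah1, which breaks down an inhibitor of nitric oxide synthesis, were both higher. Edn1 and Phactr1 are neighbours with opposite directions, at log2 fold changes of 1.14 and -2.06.

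Other probes of the same genes gave a partial check. For 107 of the 391 genes the array held 159 further probes, and 126 of these had the same sign as the probe used. Of these probes 31 passed threshold 2 in the same direction and 0 in the opposite direction (limma). The other 128 did not pass, and 80 of those were detected on no array of either line.

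Against the line with Pax6(5a), which has a short insert in the paired domain, 108 genes (0.676% of 15967) differed in the Pax6 line past threshold 2 in either direction. Values of the Pax6(5a) line are given in the order passage 8, passage 8 and passage 13, so passages differ between these lines too. Serpina1b was the clearest, at 432 and 453 in the Pax6 line against 60.01, 63.5 and 81.3 in the Pax6(5a) line (log2 difference 2.71 ± 0.13, adjusted p = 4.08e-07), and Crct1 read 213 and 533 against 70.7, 66.8 and 79.6 (difference 2.22 ± 0.26, adjusted p = 0.0008). Each was detected on 1 of the 3 Pax6(5a) arrays, near the floor, so these differences are approximate. Il33 read 171 and 248 against 1099.8, 1137 and 1857 and was lower in the Pax6 line by a log2 difference of -2.68 ± 0.20 (adjusted p = 2.15e-05), and Thbs2 3928 and 3521 against 9677, 9634 and 9122 (-1.35 ± 0.08, adjusted p = 5.49e-06). The Pax6(5a) line stood between the other lines for these 2 genes.

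Antxr1, the anthrax toxin receptor that binds collagen, read 304 and 358 in the Pax6 line, against 862, 865 and 1026 in the Pax6(5a) line (difference -1.47 ± 0.12, adjusted p = 4.45e-05) and 762, 808 and 960.5 in the control line. Ccl7 read 1002 and 1432 against 4361, 4134 and 3052 (-1.67 ± 0.16, adjusted p = 0.000188). Crtap went the other way, since its 103 and 135 in the Pax6 line were above the 63.6, 64.8 and 56.4 of the Pax6(5a) line, where it was not detected (adjusted p = 0.00135). For Ccn2, which read 1508 and 1533 against 1252, 1344 and 892, and for Ankrd1, at 1716 and 1552 against 1359, 1545 and 1063, no difference passed (0.41 ± 0.18 and 0.32 ± 0.16, adjusted p = 0.398 and 0.487). This comparison was added after the data had been seen, and it uses the same Pax6 arrays as the comparison with the control line.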

How the data were processed

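Signal intensities and detection p-values of 24613 probes on 8 arrays were deposited by the authors, who quantile normalized the intensities; the method behind the detection p-values is not given in the sources used here. The deposited normalized intensities were put on the log2 scale, and quantile normalization of the non-normalized intensities gave the same values to within 5e-06. A linear model with 1 coefficient per line was fitted to all 8 arrays (limma 3.58.1, run under R 4.3.3), and the thresholds follow the study's methods. Each of 15967 genes was represented by the brightest of its probes (mean log2 signal over the 8 arrays), and 56 probes past threshold 2 that name no gene or several are counted only. Where a line had no detection, its signals were raised to the lowest detected signal of each array to give a bound.

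Genes named are Pax6, the 15 largest rises and the 15 largest falls, called members of 18 lists and of the markers, genes that the study measured by PCR, and uncalled members of these as examples. The other genes named (the chemokines, Antxr1, and those with a promoter match or a called neighbour) were chosen after their values were seen. The members and lists were chosen with earlier results of these data known, and the lists were written from general knowledge after the study's tables had been read. The alternatives were neqc (offset 16) and normexp (offset 50) background correction, scaling by medians or by cyclic loess in place of quantiles, a filter to probes with 2 or more detections, limma's trended and robust variance, the 5 arrays alone, passage number or earlier and later passage in the model, same-passage preparations averaged, line and passage as a random effect, and each array left out, 16 settings in all. The test was also run on simulated data in which every array was drawn independently. That run therefore does not cover likeness between preparations of the same passage. Promoter windows are from RefSeq (GRCm38.p6), and plots used Python 3.11.15 with matplotlib 3.10.9. The PCR, chromatin immunoprecipitation and growth measurements were not analysed here.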

Additional observations from a re-analysis of the deposited data

How the results depend on the processing

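The number of probes past threshold 1 (221) moved most. It was 65 with neqc background correction, 348 with passage number as a covariate and 74 with same-passage preparations averaged, and lay between 128 and 265 with each array left out. It was 128 and 134 without Pax6 passage 9 or passage 15, 132 and 138 without either control preparation of passage 13, and 265 without control passage 19. With same-passage preparations averaged 113 probes were higher and 182 lower past threshold 2, against 207 and 289, and with each array left out between 146 and 247 were higher and between 212 and 365 lower. Median scaling gave 158 higher and 336 lower probes. None of the 187 named genes past threshold 2 reversed direction in these settings. Of the 187, 124 were called in every setting and 63 lost the call in at least 1, most often with neqc (56) and with same-passage preparations averaged (45). Of all 391 genes, 67 of the higher and 115 of the lower were called in every setting. No paired analysis was possible because the Pax6 arrays carry no replicate number and the passages of the 2 lines differ. The number of arrays limits the precision, and signals near the detection floor understate folds.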
